A study of Capsella grandiflora and Capsella rubella with 18 samples.

Results

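The genes described here were transcribed in every one of 10 leaf libraries of the outcrossing crucifer Capsella grandiflora, yet at very different levels from plant to plant. They were chosen on those leaf values. Of 19350 gene rows, 9691 held at least 1 FPKM (fragment number normalized for transcript length and sequencing depth) in all 10 leaf libraries with a leaf mean of at least 10 FPKM. Of these, 116 were left out because their leaf mean reached 100 FPKM while their bud mean was at most 1/50 of it. The 200 rows with the largest standard deviation (SD) of log2(FPKM + 1) over the leaves were then taken from the remaining 9575, which are called the eligible rows below. Leaf levels, leaf SDs and the leaf libraries that hold the extremes therefore describe the choice, and no test is given on them.

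The study compared flower buds of the self-compatible Capsella rubella with those of C. grandiflora, and used C. grandiflora leaves as a reference tissue. Polyadenylated RNA of greenhouse plants was sequenced as paired-end libraries. The Cg_leaf group held 10 libraries of maturing leaves. In accession order, their plants came from Mikro Papingo, Mesolongion, Kalenzi, Koutselio, Mikro Papingo, Corfu, Pili, Troumpeta, Ano Pedina and Mikro Papingo, all in Greece. They were raised from seed collected in the wild, except that Cg_leaf 6 from Corfu was an F1 cross. The Cg_bud group held 4 libraries of mixed-stage buds, from wild seed of Monodendri, Pili and Metsovo and an F1 cross of Corfu. The Cr_bud group held 4 libraries of mixed-stage C. rubella buds, from Kalavrita, San Luca, Megalopoli and a Samos line inbred since 2002. Plant age is not given in the labels, and no leaf library of C. rubella was among the samples. Leaf and bud libraries carry different plant labels, so every bud value below comes from another plant than the leaf values that chose the genes.

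C. grandiflora is self-incompatible, and its plants are outbred. C. rubella is its self-compatible relative, in which lines are largely homozygous. Transcript levels in leaves are known to follow genotype, time of day, light, wounding and infection. The labels give none of these per library other than the plant's origin, and none was tested. Names or products do not accompany the gene IDs in the table, so the genes are given by ID and coordinates on the CR v1 JGI build, with no function. For the same reason the labelled tissues were not checked against marker genes.

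FPKM summed to between 1307609 and 1858148 in the leaf libraries and to between 576725 and 657140 in the bud libraries. Read totals were not used here. The most common ratio of low values between a library and Cg_leaf 7 gave relative depths from 0.493 (Cg_leaf 9) to 1.01 (Cg_leaf 1). The bin of that ratio held only 23.9% (Cg_leaf 8) to 27.0% (Cg_leaf 3) of the rows compared. These ratios assume that no scaling other than by read totals went into the FPKM. In Cg_bud 1 and Cr_bud 1 the value 0.5 stands where the other bud columns hold 0, in 1023 and 1137 rows. In each of these columns 14 of the 200 genes hold it.

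The leaf SD of the 200 genes ran from 1.33 to 2.80 on the log2 scale, with a median of 1.49, while the median over the eligible rows was 0.43. Between the highest and the lowest leaf their FPKM differed by a factor of 12.6 at least, 36.9 at the median and 802 at most, and 17 genes reached 100-fold. The eligible rows had a median factor of 2.65. Their leaf means, at least 10 FPKM by the rule, ran from 10.1 to 19540.0 FPKM with a median of 39.4, beside 31.7 FPKM over the eligible rows. A mean can rest on a few high leaves: Carubv10020708m had a leaf mean of 49.1 FPKM and a leaf median of 5.44. There was no break in the data at the boundary of the list. Just inside it, Carubv10004814m and Carubv10005376m had leaf SDs of 1.33 and ranges of 4.41 to 99.7 and 4.08 to 51.6 FPKM. Just outside it, Carubv10026846m and Carubv10009816m also had leaf SDs of 1.33, with ranges of 2.74 to 84.8 and 3.99 to 75.4 FPKM. Altogether 662 eligible rows had a leaf SD of 1 or more.

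The largest spread belonged to Carubv10020662m (scaffold 2, 7491895 to 7494338). Its leaf values, from Cg_leaf 1 to Cg_leaf 10, were 1.73, 1.05, 235, 3.71, 6.41, 20.0005, 839, 50.1, 10.4 and 37.7 FPKM. Cg_leaf 7 and Cg_leaf 3 were far above the rest, Cg_leaf 1 and Cg_leaf 2 stood near the minimum of the rule, and the other leaves lay in between. Carubv10004998m (scaffold 7, 1281530 to 1284171) ran the other way across the same plants, with 412, 24.5, 6.44, 138, 44.9, 63.8, 1.24, 2.33, 1.8 and 92.5 FPKM. It was highest in Cg_leaf 1 and within 3 FPKM of the minimum in Cg_leaf 7, Cg_leaf 8 and Cg_leaf 9. Most members had no gap as wide as 2 log2 units between neighbouring leaf values. Such a gap was found in 50 genes. In 28 of them 1 library stood alone above the gap, in 14 a library stood alone below it, and in 8 the leaves divided otherwise.

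**Figure D1:**
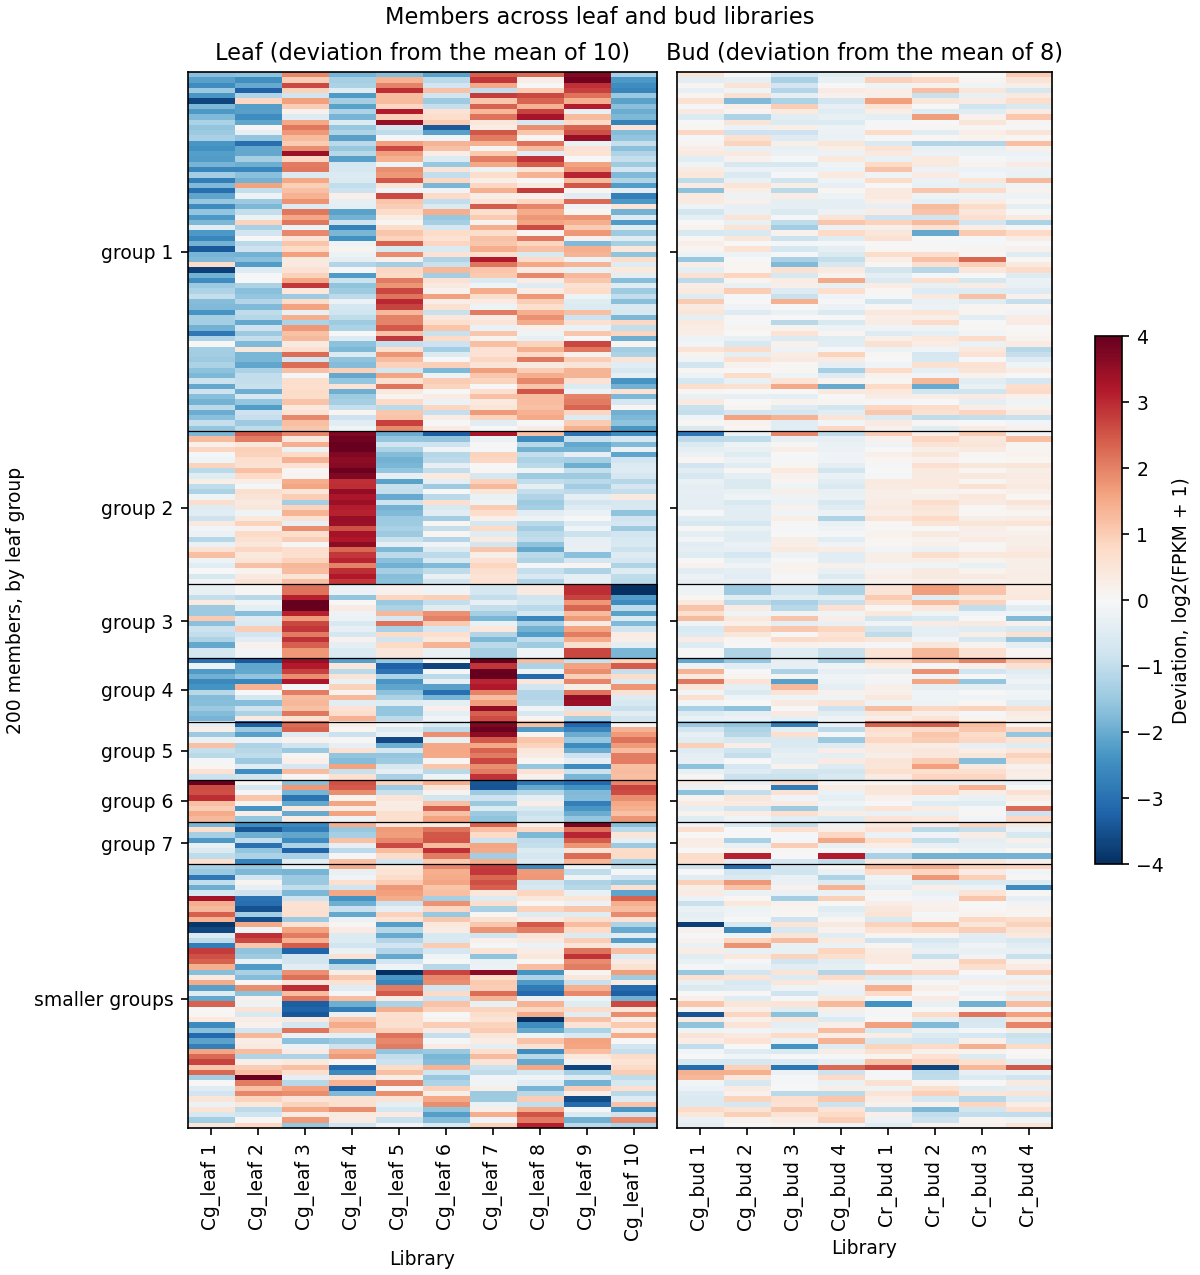
Heat map of the 200 genes (rows, ordered by leaf group) over the 10 leaf and 8 bud libraries (columns), with colour giving the deviation of log2(FPKM + 1) from the gene's mean over the libraries of that tissue. Blocks of genes share high and low leaves, among them the 29 genes high in Cg_leaf 4, while the bud deviations are paler.

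No single leaf library held all the extremes. Cg_leaf 4 had the highest value of 33 members, Cg_leaf 7 of 32, Cg_leaf 9 of 30, Cg_leaf 5 of 29 and Cg_leaf 3 of 26. The lowest values gathered in Cg_leaf 1 (40 members), Cg_leaf 2 (33) and Cg_leaf 10 (30). The median deviation of the 200 genes from their leaf mean was -1.11 log2 in Cg_leaf 1, -0.79 in Cg_leaf 2 and -0.66 in Cg_leaf 10, and it was highest in Cg_leaf 3, at 0.83. Cg_leaf 1 and Cg_leaf 10 also had the lowest median FPKM over all 19350 rows, 7.20 and 7.74, where the other leaves had 8.89 (Cg_leaf 2) to 10.9. Over the eligible rows, Cg_leaf 1 was the lowest library in 22.2% and Cg_leaf 4 the highest in 21.9%, so both stand apart beyond the 200 genes. Cg_leaf 4 was also the lowest in 14.1% of the eligible rows. Their median deviation from the leaf mean was 0.0087 log2 there and -0.26 in Cg_leaf 1. How far such differences between whole libraries enter the members' values was not tested. Chosen on quantile-normalized leaf columns, which share a common distribution but may still differ gene by gene, 182 of the 200 genes were the same.

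Plants of a shared origin did not always resemble each other in these genes. Over the 200 deviations from the gene's leaf mean, Cg_leaf 1 and Cg_leaf 10, both from Mikro Papingo, had a Pearson r of 0.395. The third plant of that origin, Cg_leaf 5, had r of -0.289 and -0.301 with them. Across all 45 pairs of leaf libraries, which share the gene means they are set against, r ran from -0.502 (Cg_leaf 4 and Cg_leaf 8) to 0.400 (Cg_leaf 2 and Cg_leaf 4) with a median of -0.137. These are descriptions across genes, which are not independent replicates.

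Members that followed each other over the leaves were gathered by average-linkage clustering on Pearson correlation over the 10 libraries, at a distance of 0.5. This gave 24 leaf groups, of which 7 had at least 8 genes and together held 150 of the 200. Being built from the values that chose the genes, the groups carry no test. Correlation over all 19900 pairs of members averaged 0.0996, and 3.80% of pairs exceeded 0.8, beside 0.0871 and 2.11% over the eligible rows. The first 3 principal components held 32.1%, 18.9% and 12.3% of the members' leaf variance, and 33.4%, 17.7% and 13.2% in the eligible rows.

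The largest, leaf group 1 (68 genes, mean leaf r 0.590), separated the leaves into a low and a high set. Its median level was 4.89 FPKM in Cg_leaf 1, 5.83 in Cg_leaf 2, 8.69 in Cg_leaf 4 and 8.49 in Cg_leaf 10, against 33.6 to 53.1 in Cg_leaf 3, 5, 7, 8 and 9. Cg_leaf 6 lay between, at 20.6. The lowest leaf was Cg_leaf 1 in 24 genes, Cg_leaf 2 in 18, Cg_leaf 10 in 14 and Cg_leaf 4 in 8. The same 4 leaves stayed lowest on quantile-normalized columns, at mean deviations of -0.90 to -1.46 log2. Its most central gene, Carubv10009030m (scaffold 1, 15003226 to 15007083), had 2.51, 3.44, 27.2, 4.12, 21.6, 10.01, 15.9, 29.4, 53.6 and 7.17 FPKM from Cg_leaf 1 to Cg_leaf 10. In buds the same gene was nearly level, at 7.49, 5.4, 6.13 and 5.95 FPKM in C. grandiflora and 5.32, 5.5, 4.11 and 4.72 in C. rubella. Of the 68 genes, 15 were on scaffold 4 and 17 had a bud mean under 1 FPKM.

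Leaf group 2 (29 genes, mean leaf r 0.834) was the tightest of the 7 and rested on a single plant. All 29 genes were highest in Cg_leaf 4, the plant from Koutselio, where their median level was 232 FPKM against 7.04 to 48.1 in the other 9 leaves. The median leaf SD of the group was 1.43 with Cg_leaf 4 and 0.97 without it, and only 2 of the 29 genes would have been chosen had that library been left out. Carubv10024202m (scaffold 4, 10336213 to 10337604) had 57.8, 105, 173, 785, 16.99, 31.1, 117, 26.6, 24.98 and 37.7 FPKM over the leaves. Unlike most of the list, the group was strong in buds, with a median bud mean of 85.85 FPKM beside a median leaf mean of 38.5, and 19 of its 29 genes had a higher mean in buds than in leaf. Carubv10024202m itself held 454, 368, 404 and 393 FPKM in C. grandiflora buds and 451, 485, 437 and 458 in C. rubella buds, so its leaf value in Cg_leaf 4 was the only leaf value above the bud range. In bulk tissue, more cells of a type and more RNA per cell cannot be told apart.

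Leaf groups 3, 4 and 5 were led by Cg_leaf 3, Cg_leaf 7 or both. Group 3 (14 genes) had 9 genes highest in Cg_leaf 3 and 4 in Cg_leaf 9, with median levels of 285 and 152 FPKM there and 12.8 to 49.1 in the other leaves. Group 4 (12 genes) was highest in Cg_leaf 7 for 7 genes, at a median of 545 FPKM, and lowest at the median in Cg_leaf 1, at 5.79. Group 5 (11 genes) also peaked in Cg_leaf 7, in 10 of 11 genes, but was low in Cg_leaf 9, at 13.8 FPKM against 598 in Cg_leaf 7. The same Cg_leaf 9 was thus among the high leaves of group 4 and the low leaves of group 5.

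Groups 6 and 7, of 8 genes each, were opposite in Cg_leaf 9 and in Cg_leaf 1, 7 and 10, but both lay below their means in Cg_leaf 2, 3 and 8 and above them in Cg_leaf 5 and 6. Group 6 was highest on average in Cg_leaf 1 and Cg_leaf 10 (mean deviations 2.15 and 1.88 log2) and lowest in Cg_leaf 9 (-2.20). Group 7 was highest in Cg_leaf 9 (2.16) and Cg_leaf 6 (1.85), and lowest in Cg_leaf 2 (-2.17) and Cg_leaf 3 (-2.01). Cg_leaf 1 and Cg_leaf 10, in which most low values of group 1 fell, were therefore the high leaves of group 6. The remaining 50 genes fell into 17 smaller groups.

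**Figure D2:**
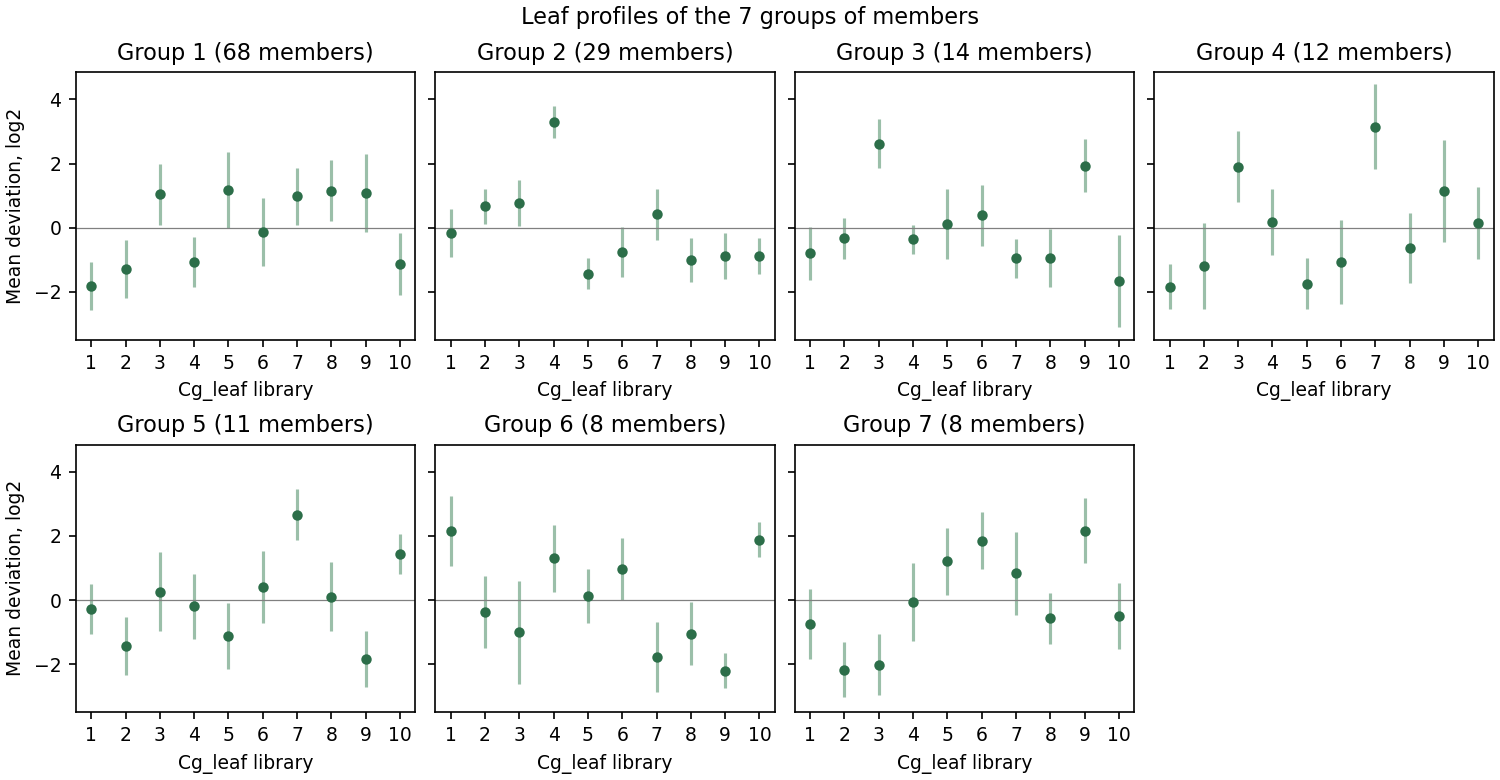
Mean deviation of log2(FPKM + 1) from each gene's leaf mean (y axis) in the 10 leaf libraries (x axis) for the 7 leaf groups with at least 8 genes, with points for the mean and bars for the SD over the group's genes. Group 2 stands at 3.30 in Cg_leaf 4 and at or below 0.76 in every other leaf, while groups 6 and 7 run in opposite directions in Cg_leaf 9, at -2.20 and 2.16.

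The highest levels on the list belonged to 2 pairs of genes on scaffold 26, a small scaffold on which 4 of the 5 rows in the table were members. Carubv10012760m (82673 to 82932) and Carubv10012759m (49047 to 49306) had the same leaf values, 7630.2, 11583, 41075, 8459, 17098, 10338, 4929, 11552, 79207 and 3529 FPKM from Cg_leaf 1 to Cg_leaf 10. Next to them lay Carubv10012757m (82970 to 83764) and Carubv10012761m (49344 to 50138), which also shared their leaf values, from 142 in Cg_leaf 10 to 22727 in Cg_leaf 9. Within each pair of neighbours the leaf r was 0.899. Rows with the same values may divide or share the reads of near-identical copies, so the level of any single copy is uncertain, and the 200 rows hold 198 distinct leaf profiles. In buds Carubv10012760m was lower than in any leaf, at 363, 157, 258 and 194 FPKM in C. grandiflora and 525, 906, 551 and 381 in C. rubella.

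The list was spread over 12 scaffolds. On scaffolds 1 to 8 lay 193 genes, from 1.38% of the eligible rows of scaffold 1 (22 genes) to 3.13% of scaffold 5 (31 genes), and 7 genes lay elsewhere (3.5%, beside 0.668% of the eligible rows). Of the members 8.0% shared their coordinates with another row, beside 16.4% of the eligible rows. Only 10 pairs of members lay within 10000 bases of each other, 6 of them in the same leaf group, with leaf r from -0.15 to 0.91 and a median of 0.78. On scaffold 8, Carubv10027331m (10153071 to 10153827) and Carubv10027406m (10156712 to 10157455) had a leaf r of 0.911. On scaffold 3, Carubv10013827m (4847174 to 4849153) and Carubv10013912m (4851455 to 4853543) had a leaf r of 0.893, and both were lower in every leaf than in any bud. Carubv10013912m held 7.76 to 1019 FPKM in leaf and 1063 to 2218 in buds.

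Bud levels of the 200 genes ranged from nearly none to far above the leaf. Bud means ran from 0.158 to 3432 FPKM with a median of 10.4, beside 20.5 over the eligible rows. In 34 genes the bud mean was under 1 FPKM and in 100 it was at least 10 FPKM. All 8 buds lay inside the gene's own leaf range in 72 genes, below it in 46, above it in 6, and on both sides of a leaf extreme in 76. The bud mean exceeded the leaf mean in 43 members (21.5%, beside 31.0% of the eligible rows). Bud and leaf columns differ in scale and rounding, so no test between the tissues is given. At one end, Carubv10010538m (scaffold 1, 8419837 to 8420963) had a leaf range of 1.98 to 764 FPKM with a median of 23.7, and stood at 1607, 1373, 1357 and 1111 in C. grandiflora buds and 1371, 1111, 1271 and 1018 in C. rubella buds. At the other, Carubv10004998m reached 412 FPKM in Cg_leaf 1 and at most 1.1 in any bud.

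Genes that differed most between leaves were also less even among buds of other plants, a measure that the choice did not use. The SD of log2(FPKM + 1) within the 4 C. grandiflora buds had a median of 0.413 over the 200 members, beside 0.167 over the eligible rows and 0.196 over all genes tested in buds. Within the 4 C. rubella buds the medians were 0.325, 0.148 and 0.172. Genes tested are those with at least 1 FPKM in at least 4 of the 8 buds. Of the 165 members among them, 67 exceeded the 90th percentile of C. grandiflora bud SDs (0.513), beside 4.16 percent of the eligible rows, and 60 exceeded that of C. rubella (0.490), beside 4.25 percent. As shares of the members tested these are 40.6% and 36.4%, and by construction 10% of all genes tested exceed either. The contrast was also seen at higher levels: over the 100 members with a bud mean of 10 FPKM or more, the median bud SDs were 0.442 and 0.285, beside 0.159 and 0.139 in the 7569 eligible rows at that level. The bud SD equalled or exceeded the leaf SD in 5 genes for C. grandiflora and 2 for C. rubella. That is a description, since the members were chosen for a large leaf SD. Leaf and bud columns also differ in scale and in the number of libraries. The eligible rows, too, had a larger median SD in leaf (0.43) than in buds.

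Bud spread fell step by step with the rank on leaf SD, with no break at rank 200. The median SDs within C. grandiflora and C. rubella buds were 0.292 and 0.226 at ranks 201 to 400, 0.247 and 0.218 at ranks 401 to 800, and 0.131 and 0.121 at ranks 6401 to 9575. The unevenness in buds is thus not particular to the 200 genes, which are the end of a range. In C. grandiflora the bud SD was larger than in C. rubella for 123 members (61.5%), beside 56.1% of all genes tested.

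Among the members the most uneven gene in buds was Carubv10014947m (scaffold 3, 12284510 to 12285736), with bud SDs of 2.71 (C. grandiflora) and 2.97 (C. rubella). It held 69.8, 65.4, 76.9, 2.94, 54.4, 84.96, 17.5, 96.7, 1.61 and 56.1 FPKM over the leaves, with Cg_leaf 4 and Cg_leaf 9 far below the rest. In buds it held 0.5 (in place of 0), 23.5, 0.71 and 60.3 in C. grandiflora and 78.6, 0, 30.9 and 70.4 in C. rubella. High and low plants thus occurred in all 3 groups, and the species difference of 1.39 log2 did not pass the test described further on (limma, adjusted p = 0.577). Carubv10006071m (scaffold 7, 17145912 to 17146751) followed, with 53.4 to 3139 FPKM in leaf, 194, 64.8, 8.86 and 36.8 in C. grandiflora buds and 40.7, 132, 14.4 and 38.01 in C. rubella buds. The opposite case was Carubv10024202m of leaf group 2, the most even member in buds.

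**Figure D3:**
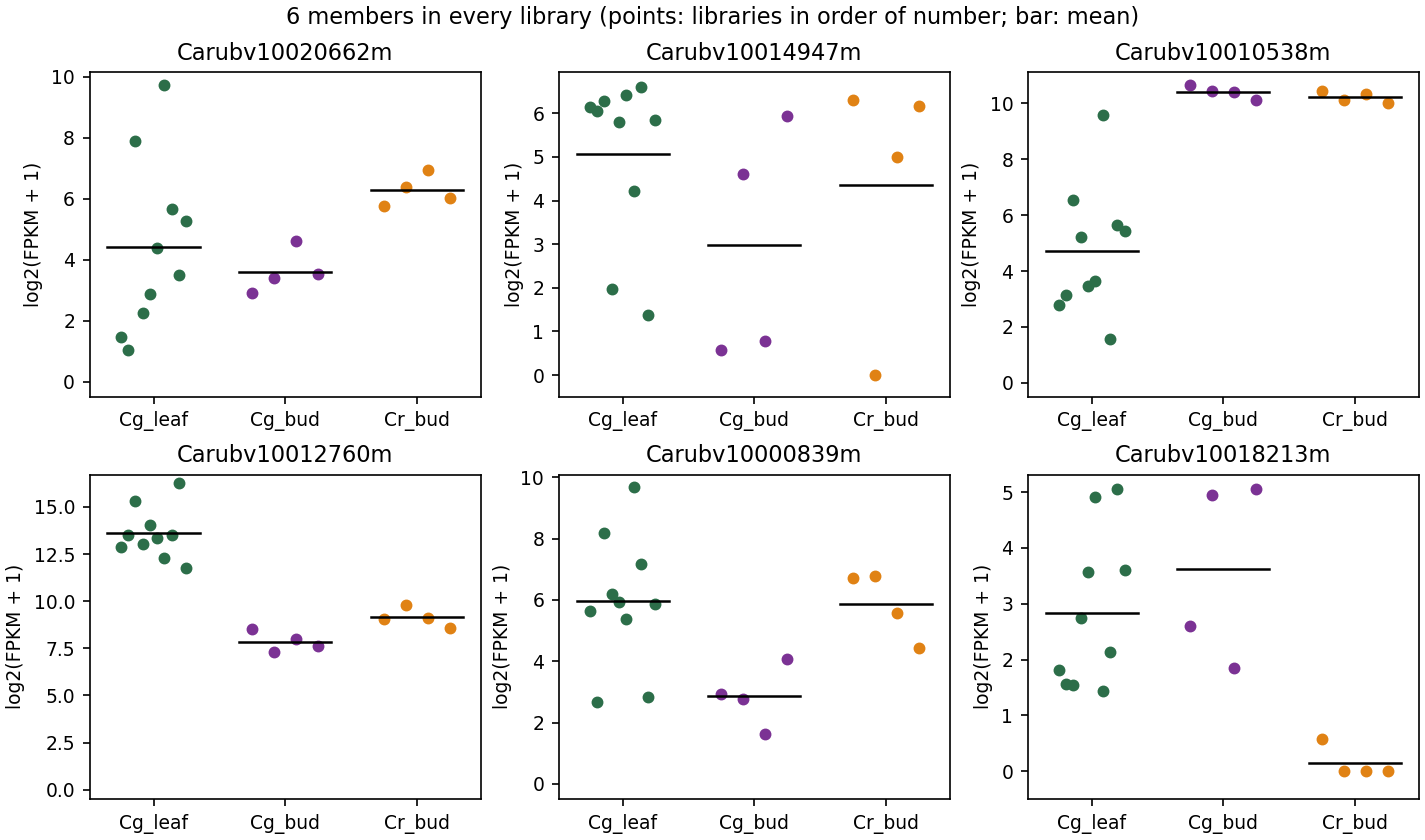
Levels of 6 members as log2(FPKM + 1) in the 10 leaf, 4 C. grandiflora bud and 4 C. rubella bud libraries, with 1 point per library and a bar at the mean. Carubv10014947m is widely spread in all 3 groups, whereas Carubv10010538m spans 1.98 to 764 FPKM in leaf and stays between 1018 and 1607 in buds.

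Genes that moved together over leaves did so only weakly over buds. After subtracting each species' mean, the correlation over the 8 buds averaged 0.118 over 1859 pairs of tested members from the same leaf group and -0.013 over 11671 pairs from different groups. Without the pairs of leaf group 2, the 1453 other pairs from the same group averaged 0.0306. For 525 pairs with a leaf r above 0.8 it averaged 0.266, and for 1075 pairs with a leaf r under -0.5 it averaged -0.0936. Pairs of leaf group 2, whose mean leaf r was 0.834, were not set aside from the 525. The 29 genes of group 2 had a mean bud r of 0.432. For the other 6 groups the mean bud r ran from -0.118 (group 6) to 0.175 (group 3). Group 2's bud r rested on Cg_bud 3, in which its mean deviation was 0.12 log2 against -0.35 to -0.44 in the other C. grandiflora buds, and it was 0.0814 without that library.

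Bud and leaf plants of the same origin were compared over the 200 genes' deviations from their tissue means, as a description over 40 pairs of libraries that share those means. The Corfu pair (Cg_leaf 6 and Cg_bud 4) had r of 0.138, which ranked 6 of 40. The Pili pair (Cg_leaf 7 and Cg_bud 2) had r of -0.0733, ranking 30, and the median was -0.0142. The highest, 0.347, joined Cg_leaf 4 from Koutselio with Cg_bud 3 from Metsovo, and it was 0.206 without the genes of leaf group 2. The titles of these libraries share a leading number, and so do those of the Pili pair, which ranked 30. The labels do not give the meaning of these numbers.

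In flower buds, 60 of the 165 members tested differed between the species, and 51 of these 60 were higher in C. rubella. The groups were compared over the 4 C. rubella and 4 C. grandiflora bud libraries by limma on log2(FPKM + 1), with Benjamini-Hochberg adjustment over all 16923 genes tested and a threshold of 0.05. The calls make up 36.4% of the members tested, beside 23.9 percent of all genes tested and 21.2 percent of the eligible rows. Higher in C. rubella were 30.9% of the members tested and lower, with 9 genes, 5.45%. The background was 11.9 percent higher and 12.0 percent lower over all genes tested, and 13.4 and 7.76 percent over the eligible rows. Whether reads of both species align equally well to the CR v1 JGI build was not tested. P-values measure the spread between these libraries. The count moved with some of them. Without Cg_bud 3 it was again 60, of which 47 were among the first 60. It was 33 without Cr_bud 2, which is 20.2% of members beside 16.2% of all genes then tested. Calls numbered 36 without Cg_bud 4 (22.4%, beside 16.5% of all genes) and 38 without Cg_bud 2 (23.75%, beside 16.4%). With both columns holding 0.5 left out, 33 members were called (20.8%, beside 12.1% of all genes). A fit of all 18 libraries, whose residual takes in the leaf spread that chose the members, called 1 member, 0.606% of those tested beside 9.13% of all genes.

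The median difference of the 165 members, C. rubella minus C. grandiflora, was 0.42 log2, beside 0.01 over all genes tested and 0.04 over the eligible rows. It was above 0 in 115 members (69.7%, beside 51.1% and 54.8%). At least 2-fold differences were called in 24 members higher and 7 lower in C. rubella. The background of such calls was 2.4 percent higher and 4.15 percent lower over all genes tested, and 1.64 and 0.744 percent over the eligible rows. The median size of the called differences was 1.02 log2 beside 0.69 over all genes called. The 2 sets of 4 libraries did not overlap in 52 members (31.5%, beside 28.1 percent of all genes tested and 26.3 percent of the eligible rows). The other 35 members failed the filter on low values: their highest bud value was 3.81 FPKM. Only 1 tested member reached 1 FPKM in the buds of a single species and so had to differ to be tested. Among the 135 members with at least 1 FPKM in all 8 buds, 54 were called (40%), 47 higher and 7 lower, beside 23.3% of the 15274 genes at that level.

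Higher calls outnumbered lower ones among members on both sides of the balance between tissues. Eligible rows with a bud mean at or below their leaf mean were called higher in 954 and lower in 422 of 6435 tested. Members of that kind were called in 34 and 6 of 122, so calls in either direction made up 32.8% beside 21.4%. Eligible rows with a bud mean above their leaf mean were called evenly, 308 higher and 308 lower of 2969 tested. The 43 members of that kind had 17 higher and 3 lower, so calls in either direction made up 46.5% beside 20.7%. Leaf group 2 supplied 19 of those 43 members. Outside that group, 43 of 136 tested members were called in all (31.6%, beside 21.2 percent of the eligible rows), 34 higher and 9 lower.

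**Figure D4:**
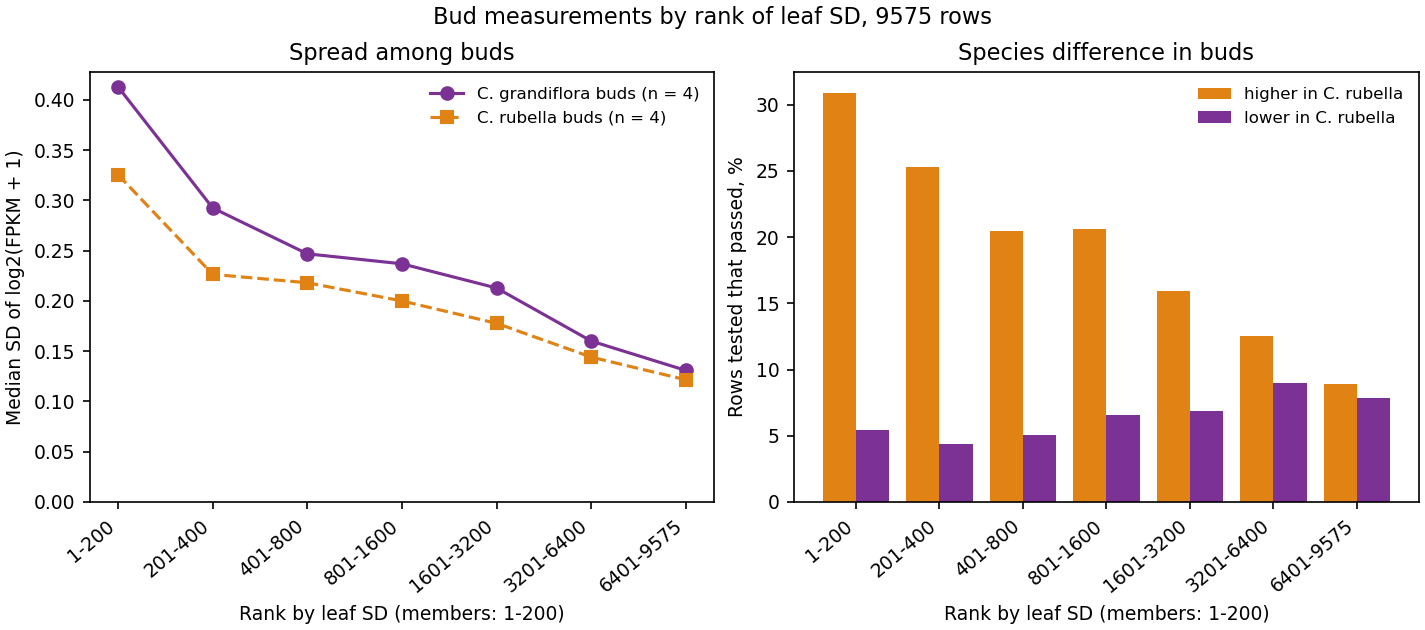
Eligible rows binned by rank on leaf SD (x axis, most variable first), with the median SD within the buds of each species and the percent of tested rows called higher or lower in C. rubella. Higher calls fall from 30.9% at ranks 1 to 200 to 8.89% at ranks 6401 to 9575, while lower calls lie between 4.40% and 8.98%.

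This, too, was a gradient and not a property of the 200 alone. Of tested rows at ranks 201 to 400, 25.3% were higher and 4.40% lower in C. rubella, at ranks 801 to 1600 20.6% and 6.61%, and at ranks 6401 to 9575 8.89% and 7.88%. Among called rows the share that was higher was 85.0% at ranks 1 to 200 and 85.2% at ranks 201 to 400, then fell through 75.7% at ranks 801 to 1600 to 53.0% in the last bin.

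The leaf groups did not share the species difference evenly, although the difference between groups was not tested. In leaf group 2, 17 of 29 genes were called and all 17 were higher in C. rubella, with a median difference of 0.47 log2 and 28 of 29 genes above 0. Group 5 had 7 of 11 called, all higher, at a median difference of 1.14 log2. Group 4 had 4 of 9 called, all higher, and group 3 had 5 higher and 1 lower of 12. With rows of the same leaf values counted once, group 3 had 3 higher and 1 lower of 10. In group 1, by far the largest, 8 were higher and 2 lower of 50 tested, or 10 calls in all, with a median difference of 0.18 log2. That is a smaller share than the 23.9 percent called over all genes tested and the 21.2 percent over the eligible rows. By direction, 11.9 and 13.4 percent of these 2 sets were called higher, and 12.0 and 7.76 percent lower. Groups 6 and 7 had 1 higher and 1 lower each, of 6 tested.

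**Figure D5:**
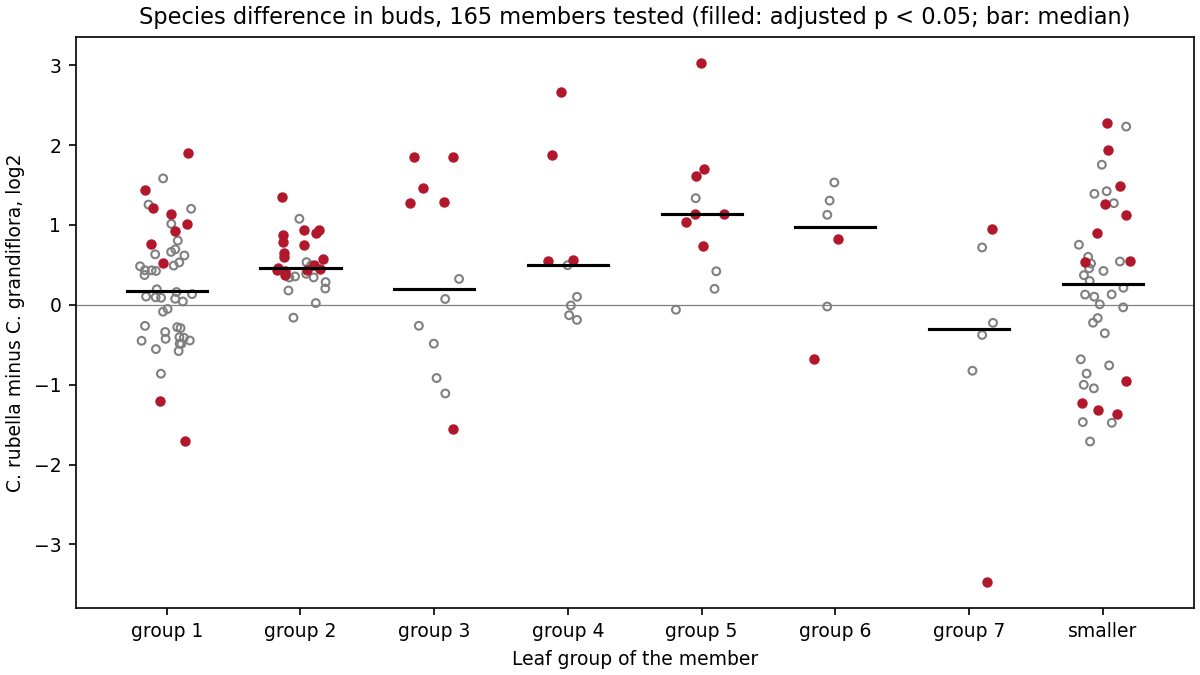
Difference in buds between the species (C. rubella minus C. grandiflora, log2) for each tested member (points) by leaf group, with called genes filled and a bar at the median of each group. Groups 2 and 5 lie mostly above 0, with medians of 0.47 and 1.14, and group 7 has a median of -0.30.

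The files do not pair IDs with names, so only 4 of the called genes are given here, the outermost in each direction. Only called genes whose libraries did not overlap between the species, and which averaged 5 FPKM or more in the higher one, were considered. The lack of overlap in these 4 genes was therefore fixed by the choice and is given as a description. Carubv10000839m (scaffold 6, 8526091 to 8529071), of leaf group 5, held 6.61, 5.84, 2.06 and 15.99 FPKM in C. grandiflora buds and 105, 109, 46.9 and 20.7 in C. rubella buds. All 4 C. rubella values were above all 4 C. grandiflora values (70.3 ± 43.5 against 7.62 ± 5.92 FPKM, SD, n = 4 each), a difference of 3.03 log2 with a standard error of 0.634 (limma, adjusted p = 0.012). The C. rubella buds differed widely among themselves, and when Cg_bud 1 and Cr_bud 1 were left out the difference was 2.78 log2 and no longer passed the threshold. In leaf the gene held 5.41 to 822 FPKM.

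Carubv10020662m, the most variable gene in leaf, held 6.47, 9.6, 23.2 and 10.6 FPKM in C. grandiflora buds and 52.8, 83, 121 and 64.2 in C. rubella buds. The groups did not overlap (12.5 ± 7.39 against 80.4 ± 30.0 FPKM, SD, n = 4 each), and the difference was 2.67 log2 with a standard error of 0.374 (limma, adjusted p = 0.00307). The C. rubella level lay inside the leaf range of C. grandiflora, below Cg_leaf 3 and Cg_leaf 7 and above the leaf median of 15.2 FPKM.

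Among the 9 members lower in C. rubella, Carubv10018213m (scaffold 5, 8375611 to 8376346) held 5.09, 29.8, 2.62 and 32.1 FPKM in C. grandiflora buds. In C. rubella it was listed at 0 in 3 buds and at 0.5, in place of 0, in the other, so no fold is given (limma, adjusted p = 0.0106). It passed the filter through its 4 C. grandiflora libraries alone and had no test when any of them was left out. In leaf it held 1.71 to 32.4 FPKM with a median of 4.57. Carubv10017549m (scaffold 5, 9057265 to 9058795) held 15.1, 53.8, 45.7 and 24.7 FPKM in C. grandiflora buds against 11.1, 7.87, 8.28 and 8.57 in C. rubella. The C. rubella buds were close together and all below the C. grandiflora buds (8.94 ± 1.43 against 34.8 ± 18.003 FPKM, SD, n = 4 each), a difference of -1.70 log2 with a standard error of 0.358 (limma, adjusted p = 0.0122).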

How the data were processed

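The authors deposited FPKM for 19350 rows and 18 libraries in 1 table, per the file headers. Bowtie, TopHat and Cufflinks appear in the submitters' processing notes; versions, settings and the scaling of FPKM were not given in the sources used here. Column names matched the library titles, and 0 columns were left over. Values were analysed as log2(FPKM + 1), a scale that understates changes of low genes. The species fit used limma 3.58.1 in R 4.3.3 with a mean trend, over genes with at least 1 FPKM in at least 4 of 8 buds, and was tested on simulated data. Depth of the bud libraries is unknown, so no counting interval is given.

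The members and lists were chosen with earlier results of these data known. Fixed gene lists and tissue markers were not used, since the files do not pair IDs with names. Named genes were those with the largest leaf SD or leaf mean, the outermost called species differences, the most central genes of each leaf group, those at the threshold, and the most and least even in buds; of these, only some are printed. The neighbouring pairs named for their leaf r were chosen after their values were seen. Alternatives covered pseudocount, filter, scaling, trend, weights, the libraries in the fit and the choice of members. Those that change or leave out the columns holding 0.5, leave out leaf group 2, count rows of the same leaf values once, keep bud means of 10 FPKM or more, or choose the members again for the species count were added after seeing the data.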

Additional observations from a re-analysis of the deposited data

Results flagged for a closer look

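Of 88 sets of 4 bud libraries of a species, from 37 named genes and 7 leaf groups, 10 held a library far from the rest by Dixon's criterion. Chance gives about 1 in 20, but the 10 sets cannot be weighed against that rate. Some of the named genes were picked for their bud spread or their species difference in buds. Some sets were also set apart only by a value that stands in place of 0. Leaf values, which chose the members, were not searched. Leaf group 2 stood at 0.12 log2 in Cg_bud 3 (next -0.35).

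The library Cg_bud 3 was low for Carubv10016913m at 2.74 FPKM (next 21.2) and for Carubv10009591m at 9.31 (next 18.1). Carubv10018222m held 49.5 FPKM in Cr_bud 2 (next 10.3), and Carubv10012892m 6.1 in Cg_bud 4 (next 3.04). At levels near 0, Carubv10004998m held 0.31 FPKM in Cr_bud 1 (others 0) and Carubv10000046m 0.4 in Cg_bud 1 (next 0.16). A value of 0.5 beside 0 in the other 3 libraries set apart Carubv10010614m in Cg_bud 1, and Carubv10022476m and Carubv10018213m in Cr_bud 1; in both columns 0.5 stands in place of 0.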

How the results depend on the processing

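Under 32 other settings of the species count, the fit of all 18 libraries aside, called members were higher in C. rubella in 76.8% to 90% of cases. In the 18 of these with a count over all genes, members were called at a higher percent than all genes in each. A change of direction was looked for only in the called genes described singly above, and none was found where they were tested. Their libraries did not overlap by choice, so leaving out a library or changing the pseudocount could not have reversed them. The fit of all 18 libraries called 1 member, 0 higher and 1 lower, or 0.606% of members beside 9.13% of all genes; the leaf spread that chose the members enters its residual by construction. With both columns holding 0.5 left out, 33 were called and 26 higher. A filter of 5 FPKM left 5 lower calls. Leaving out 1 bud library gave 33 to 60 calls, 28 to 52 higher and 5 to 9 lower: 33 without Cr_bud 2, 36 without Cg_bud 4 and 38 without Cg_bud 2. Members chosen without 1 leaf library gave 56 to 68 calls, 43 to 59 higher and 8 to 13 lower, the fewest higher without Cg_leaf 4.

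Choosing by median absolute deviation kept 125 of the 200 genes, and leaving out 1 leaf library kept 164 to 187. Median bud SDs in C. grandiflora and C. rubella were 0.584 and 0.4996 with a pseudocount of 0.1, 0.257 and 0.203 with 5, 0.383 and 0.310 without the columns holding 0.5, and 0.442 and 0.285 at a bud mean of 10 FPKM or more. Quantile normalization gave 0.308 in C. rubella, and leaving out 1 library 0.371 to 0.412 and 0.310 to 0.338. The mean bud r of leaf group 2 ran from 0.0814 (without Cg_bud 3) to 0.521. Other causes of these shifts were not tested. No paired analysis was possible because the labels give no pairing between the C. grandiflora and C. rubella buds compared.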
